A study of Mus musculus with 30 samples.

Results

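The mRNAs described here encode 47 factors of cytosolic translation in the mouse: the initiation factors, the elongation factors with the kinase of elongation factor 2, the termination and recycling factors, the cytoplasmic poly(A)-binding protein Pabpc1 and the repressors of the cap-binding protein eIF4E. They were taken by symbol, from a list of names, out of 57186 gene identifiers. All 47 were found and all 47 passed the filter on low counts in both cell lines, with 220 reads or more in every library. RNA was sequenced from NIH/3T3 cells, a mouse fibroblast line grown in serum, and from CGR8 cells, a mouse embryonic stem cell line grown without serum in N2B27 medium with 2i/LIF. Per the labels, both lines carried a ROSA26 knock-in called SLT, in treated and untreated cells alike, and all cultures of the time course received cycloheximide at 0.1 µg/mL, an inhibitor of ribosome elongation, for 0, 1, 2, 5 or 48 h. Each line and time had 3 replicates, A to C, which gives 10 groups and 30 libraries. Line and culture medium cannot be told apart in this design. Each time was set against 0 h rather than against an untreated culture of the same age. The labels do not say whether the replicates were separate cultures or whether a knock-in line was 1 clone, and the p-values then measure only the spread between these samples, which may be technical.

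Translation starts when eIF2 carries the initiator tRNA to the small ribosomal subunit. eIF2B recharges eIF2 with GTP, eIF3 holds the complex together and the eIF4 factors recruit it to the mRNA cap. eIF1 and eIF1A favour strict choice of the start codon, and eIF5 stimulates GTP hydrolysis by eIF2 once a start codon is found. eEF1A then delivers aminoacyl-tRNAs, eEF2 moves the ribosome by a codon at a time, and eRF1, eRF3 and ABCE1 end the chain and split the ribosome. The kinase of eEF2 and the eIF4E-binding proteins act as brakes on elongation and on cap binding.

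The start codon contexts of the factors whose mRNAs are described most closely are printed first, because start-site choice is the step that several of these proteins themselves control. Each is written with the 9 bases before the start codon in lower case, the start codon in capitals and the 6 bases after it.
Eif1: tcgtatcgtATGtccgct
Eif1b: tagtgtcgcATGtccact
Eif5: taagccaaaATGtctgtc
Eif4g2: gccgccaaaGTGgagagt
Eif4ebp2: gtcggagccATGtccgcg
Pabpc1: cgtgccgagATGaacccc
Eef1a1: aaagcaaaaATGggaaag
Eef2k: ccccgcaacATGgcagac
They were read from the principal transcript of each gene in GENCODE M21 (GRCm38), which is another build than the deposited counts were made on, and 46 of the 47 members were examined. Eif1 and Eif1b, along with Eif3b, had neither a purine 3 bases before the start codon nor a G directly after it. These were 3 of 46 members (6.52%), against 1506 of 20366 genes (7.39%). Eif4g2, which encodes the eIF4G-like factor also called DAP5, is annotated with a GTG start codon, as it is known to have. Both favoured bases were present in 22 of 46 members (47.8%), among them Eef1a1 and Eef2k, against 41.5% of all genes. Eif4g2 is among the 46 and the 22, whereas the shares of all genes were taken over ATG starts only.

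Libraries held 18.2 M to 30.5 M counts (mean 24.2 M). Stem cell markers (Esrrb, Nanog, Tdgf1, Pou5f1, Dppa5a and Zfp42) were at 376 CPM (counts per 1 M counts) or more in every CGR8 library and at 0.383 CPM or less in every NIH/3T3 library. Of 6 fibroblast markers, Col1a1, Col1a2, Col3a1 and Lox were at 218 CPM or more in every NIH/3T3 library, whereas Thy1 and Postn were near 0 there, at most 0.0932 and 1.01 CPM. Thy1 was higher in CGR8, at 1.475 to 4.34 CPM, and the other fibroblast markers were at 0.737 CPM or less in every CGR8 library. Some libraries stood apart from their replicates over all genes. The standard deviation of their log2 deviations was 0.362 for 1 h C and 0.349 for 2 h A in NIH/3T3 and 0.339 for 0 h B, 0.381 for 2 h A, 0.316 for 5 h A and 0.312 for 5 h C in CGR8. Because a CPM is a share of the counts, a rise or fall is relative to the other mRNAs, and a change in RNA per cell cannot be seen. Reads of members with close copies elsewhere in the genome may have been split or lost in counting. In all, 65.3% of the 50-base stretches of Eif4a1, 64.3% of those of Eef1g and 59.2% of those of Eef1a1 also occur in transcripts of other genes. The shares were 37.3% for Eif3m, 31.6% for Eif1, 27.8% for Eif2s2, 26.2% for Eif3h, 22.0% for Eif3e and 20.7% for Pabpc1.

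The question of the time course was how the transcriptome responds to inhibited protein synthesis. Few members were called at 1 h, and at 2 and 5 h they were called in both directions. At 48 h, 24 of the 47 were lower in NIH/3T3, and 10 were called in CGR8. A member was called when the adjusted p (edgeR quasi-likelihood F test, Benjamini-Hochberg over all genes tested) was under 0.05. At 1 h, 0 of 47 members were called in NIH/3T3, where 0.732% of all genes tested were called, although 4 members had an unadjusted p under 0.05, DESeq2 called 1 and limma-voom with quality weights called 10. In CGR8 the kinase mRNA Eef2k alone was called at 1 h, where 0.270% of all genes were, 23 of them higher and 20 lower with TMM and 26 and 12 with library sizes alone. At 2 h, 16 members were higher and 9 lower in NIH/3T3, where 35.0% of all genes were called (16.1% higher, 18.9% lower). The CGR8 count at 2 h was 10 higher and 5 lower, against 19.9% of all genes (8.97% higher, 11.0% lower). That CGR8 count of 15 rested on single libraries, since it was 5 without 0 h A, 8 without 0 h C and 4 without 2 h C. The NIH/3T3 count of 25 was 16 without 2 h C. Once trends with transcript length and GC content were removed, 19 of these 25 and 5 of the 15 in CGR8 kept their call and direction. Without the libraries that stood apart, the counts were 1 in NIH/3T3 at 1 h (without 1 h C), 27 at 2 h (without 2 h A), and in CGR8 14 at 2 h without 2 h A and 18 without 0 h B.

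At 5 h the members were called more often than at 2 h, with 19 higher and 13 lower in NIH/3T3, where 51.0% of all genes were called (24.0% higher, 27.1% lower). In CGR8, 22 were higher and 12 lower at 5 h, and 52.1% of all genes were called (24.9% higher, 27.2% lower). The median log2 fold change of the members was 0.15 in NIH/3T3 and 0.26 in CGR8, beside -0.01 over all genes in each line. Without the CGR8 libraries that stood apart, 35 members were called (without 0 h B), 29 (without 5 h A) or 34 (without 5 h C). The 2 lines share no library, and 16 members were higher in both (84.2% of the 19 and 72.7% of the 22), 11 were lower in both (84.6% of the 13 and 91.7% of the 12) and 0 were called in opposite directions. How far all genes agreed between the lines was not counted, here or at 48 h, so this is not shown to be particular to the members. The members higher in both lines were Eif1, Eif1b, Eif1ax, Eif2s1, Eif2s2, Eif2b2, Eif2b3, Eif3e, Eif3h, Eif3i, Eif3m, Eif4a1, Eif4e, Eef1a1, Eef1b2 and Etf1. Those lower in both were Eif5, Eif5b, Eif3a, Eif3c, Eif4b, Eif4g1, Eif4g3, Pabpc1, Eif4ebp2, Eef2 and Eef2k.

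At 48 h the lines no longer gave like counts. In NIH/3T3, 3 members were higher and 24 lower against 0 h, where 52.3% of all genes were called (26.7% higher, 25.6% lower), and the members' median log2 fold change was -0.29. CGR8 had 6 higher and 4 lower, against 27.8% of all genes (12.2% higher, 15.6% lower), with a median of 0.01. The NIH/3T3 count of 27 was 20 to 23 with 1 library left out, and 19 of the 27 calls were kept in every such fit. The CGR8 count of 10 was 6 without 0 h A, without 48 h B or without 48 h C. Eif1b and Eif3a were higher in both lines (66.7% of the 3 and 33.3% of the 6), and Eif2s2, Eif5, Eif4g2 and Eif4ebp1 were lower in both (16.7% of the 24 and 100.0% of the 4). The cap-binding protein mRNA Eif4e was called in opposite directions. Its log2 fold change was -0.38 (SE 0.09, adjusted p = 0.00168) in NIH/3T3 and 0.26 (SE 0.09, adjusted p = 0.0499) in CGR8. Its CGR8 call was lost without any 1 of the 6 libraries but 48 h A, with an adjusted p of up to 0.159. Set directly against 5 h, the 48 h libraries were higher for 9 members and lower for 31 in NIH/3T3, where 65.6% of all genes were called (34.1% higher, 31.4% lower). In CGR8 they were higher for 11 and lower for 21, where 57.5% of all genes were called (28.9% higher, 28.6% lower). Once trends with transcript length and GC content were removed, 30 of the 40 in NIH/3T3 and 21 of the 32 in CGR8 kept their call and direction.

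**Figure D1:**
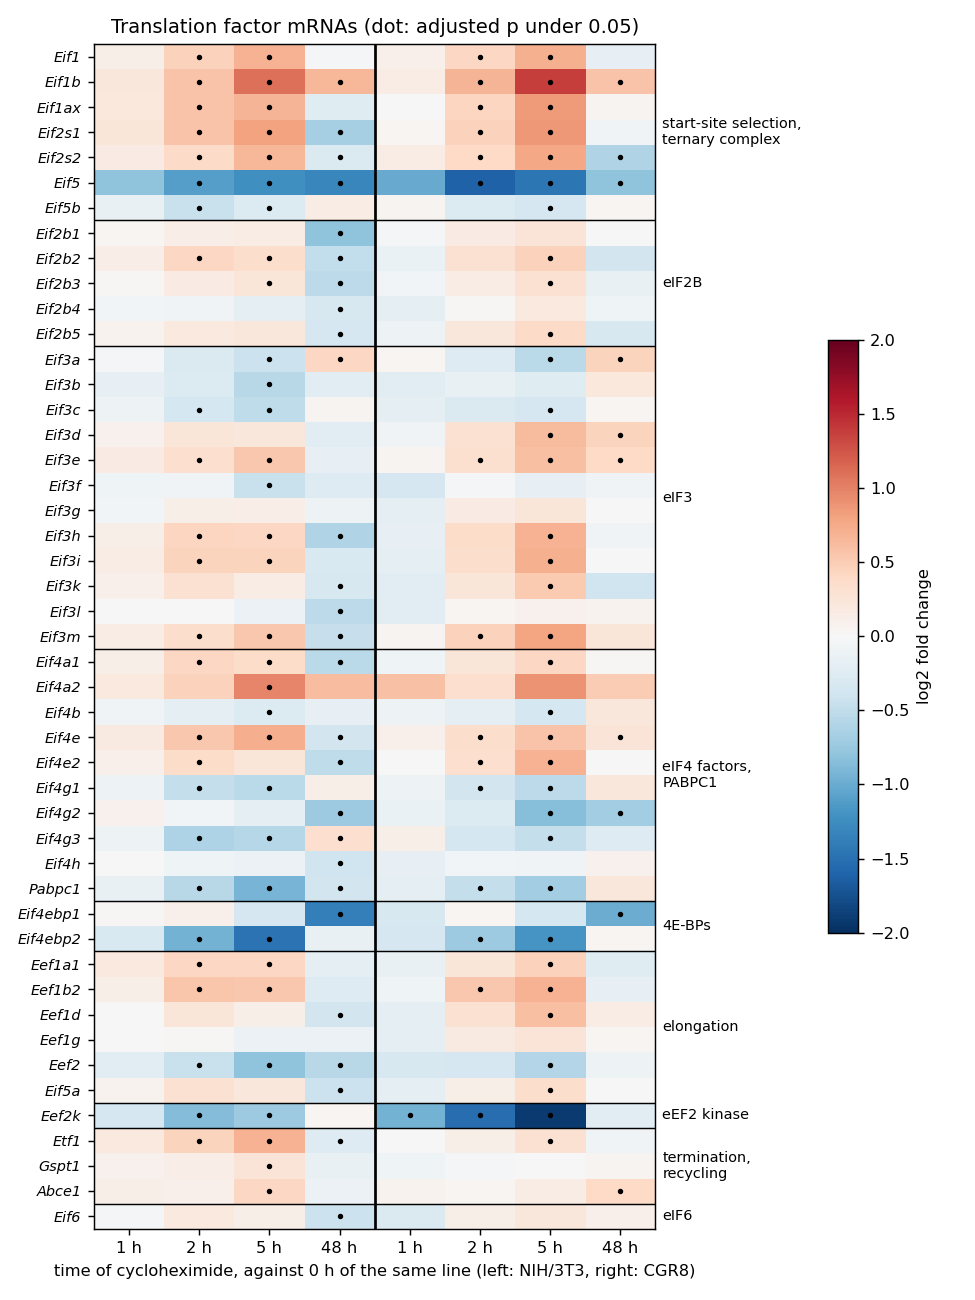
Log2 fold change of each of the 47 members (rows, grouped by role) at 1, 2, 5 and 48 h against 0 h of the same line, NIH/3T3 on the left and CGR8 on the right, with a dot where the adjusted p was under 0.05. Red is higher and blue lower than at 0 h. The 5 h columns of both lines carry the most dots, and the 48 h column is mostly blue in NIH/3T3 and pale in CGR8.

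Among the 7 mRNAs for start-site selection and the ternary complex, all 7 were called at 5 h in each line, 5 of them higher and 2 lower. Of all genes, 51.0% were called at 5 h in NIH/3T3 and 52.1% in CGR8. Eif5, the GTPase-activating partner of eIF2, fell most of the 7 at 5 h. In NIH/3T3 it stood at 334, 353 and 318 CPM at 0 h, 196, 193 and 176 at 1 h, 86.7, 191 and 183 at 2 h, 136, 144 and 138 at 5 h and 138, 133 and 143 at 48 h. Every treated library was below every untreated one. The log2 fold change was -0.81 (SE 0.18, adjusted p = 0.0559) at 1 h, which did not pass, -1.10 (SE 0.19, adjusted p = 0.000524) at 2 h, -1.23 (SE 0.19, adjusted p = 5.24e-05) at 5 h and -1.31 (SE 0.19, adjusted p = 2.69e-05) at 48 h. The 2 h A library, which stood apart, was the lowest of its group, and without it the 2 h value was -0.80 (adjusted p = 2.7e-06). At 1 h the call was made by DESeq2 and by limma-voom, and by edgeR without 1 h C.

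In CGR8, Eif5 measured 406, 352 and 447 CPM at 0 h, 205, 202 and 189.5 at 1 h, 75.1, 156 and 167 at 2 h, 143, 119 and 195 at 5 h and 219, 221 and 255 at 48 h. The treated libraries again lay below all untreated ones. Its log2 fold change was -1.01 (SE 0.23, adjusted p = 0.0972) at 1 h, which did not pass, then -1.62 (SE 0.23, adjusted p = 0.000366) at 2 h, -1.45 (SE 0.23, adjusted p = 0.000105) at 5 h and -0.81 (SE 0.23, adjusted p = 0.0152) at 48 h. At 1 h DESeq2 and limma-voom called it here as well. Without the low 2 h A library the 2 h value was -1.34 (adjusted p = 0.000168). The 48 h call was lost without 0 h C (adjusted p = 0.0539), without 48 h A (0.0546) or without 48 h B (0.0556). Against 5 h, the 48 h libraries were higher by 0.65 (SE 0.23, adjusted p = 0.0243) on the log2 scale in CGR8 and differed by -0.07 (SE 0.18, adjusted p = 0.741) in NIH/3T3, which did not pass. A small nucleolar RNA gene, Snora28, lies inside Eif5.

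Eif1b, a close relative of the start-codon gatekeeper Eif1, had the largest log2 fold change upwards of the 47 members at 5 h in both lines. It read 13.4, 12.6 and 12.9 CPM at 0 h, 19.4, 17.8 and 19.3 at 2 h, 27.0, 26.5 and 27.6 at 5 h and 21.2, 20.2 and 21.1 at 48 h in NIH/3T3. The 2, 5 and 48 h libraries all lay above the 0 h libraries, with log2 fold changes of 0.57 (SE 0.11, adjusted p = 0.00115), 1.10 (SE 0.11, adjusted p = 9.85e-07) and 0.66 (SE 0.11, adjusted p = 0.000105). In CGR8 the values were 10.8, 11.3 and 9.9 CPM at 0 h, 16.8, 15.5 and 20.0 at 2 h, 32.2, 30.7 and 24.0 at 5 h and 13.8, 17.9 and 16.0 at 48 h. Here too the 2, 5 and 48 h libraries lay above those of 0 h, and the log2 fold changes were 0.69 (SE 0.13, adjusted p = 0.00311), 1.38 (SE 0.13, adjusted p = 1.54e-06) and 0.56 (SE 0.13, adjusted p = 0.00515). Its exons overlap D830035M03Rik on the other strand, and whether the counting used strand is not given in the sources used here.

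Eif1 itself, with the poor start context printed above, rose at 5 h by 0.70 (SE 0.12, adjusted p = 0.000148) in NIH/3T3 and by 0.71 (SE 0.11, adjusted p = 0.000103) in CGR8 on the log2 scale. Eif1ax, which encodes the eIF1A partner of eIF1, measured 176, 199 and 179.5 CPM at 0 h and 336, 383 and 324 at 5 h in CGR8. The groups were apart, with a log2 fold change of 0.86 (SE 0.11, adjusted p = 1.95e-05), and in NIH/3T3 it was 0.68 (SE 0.12, adjusted p = 0.00031). Eif5b, which helps to join the ribosomal subunits, fell by less, with log2 fold changes of -0.27 (SE 0.08, adjusted p = 0.0129) in NIH/3T3 and -0.34 (SE 0.11, adjusted p = 0.0196) in CGR8. The NIH/3T3 call was lost without 0 h A or 5 h A (adjusted p up to 0.0672) and the CGR8 call without 0 h C, 5 h A or 5 h B (up to 0.109). In CGR8 the Eif5b value was 0.01 (adjusted p = 0.953) once trends with transcript length and GC content were removed.

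The eIF2 subunit mRNAs Eif2s1 (alpha, the subunit that stress kinases phosphorylate) and Eif2s2 (beta) rose together at 5 h. Eif2s1 read 276, 305 and 282 CPM at 0 h, 494, 498 and 486 at 5 h and 181, 188 and 187 at 48 h in NIH/3T3. It was thus above the untreated range at 5 h, at 0.81 (SE 0.11, adjusted p = 2.74e-05), and below it at 48 h, at -0.66 (SE 0.11, adjusted p = 0.000149). In CGR8 it read 350.3, 416 and 375 CPM at 0 h, 664, 797 and 689 at 5 h and 347, 375 and 377 at 48 h. The log2 fold changes were 0.86 (SE 0.11, adjusted p = 1.98e-05) at 5 h and -0.06 (SE 0.11, adjusted p = 0.713) at 48 h, the last of which did not pass. Eif2s2, which had the highest mean CPM of its role over all 30 libraries although Eif1 was above it in NIH/3T3 at 0 h, measured 429, 452 and 428 CPM at 0 h, 667, 720.1 and 649 at 5 h and 369.7, 355 and 371 at 48 h in NIH/3T3. Its CGR8 values were 924, 996 and 1007 CPM at 0 h, 1640, 1880 and 1671 at 5 h and 680.5, 631 and 623 at 48 h. At 5 h Eif2s2 was higher by 0.67 (SE 0.11) and 0.77 (SE 0.11), and at 48 h lower, at -0.29 (SE 0.11, adjusted p = 0.0418) in NIH/3T3 and -0.61 (SE 0.11, adjusted p = 0.000665) in CGR8. The 48 h call in NIH/3T3 was lost without any 1 of its 6 libraries (adjusted p up to 0.114).

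**Figure D2:**
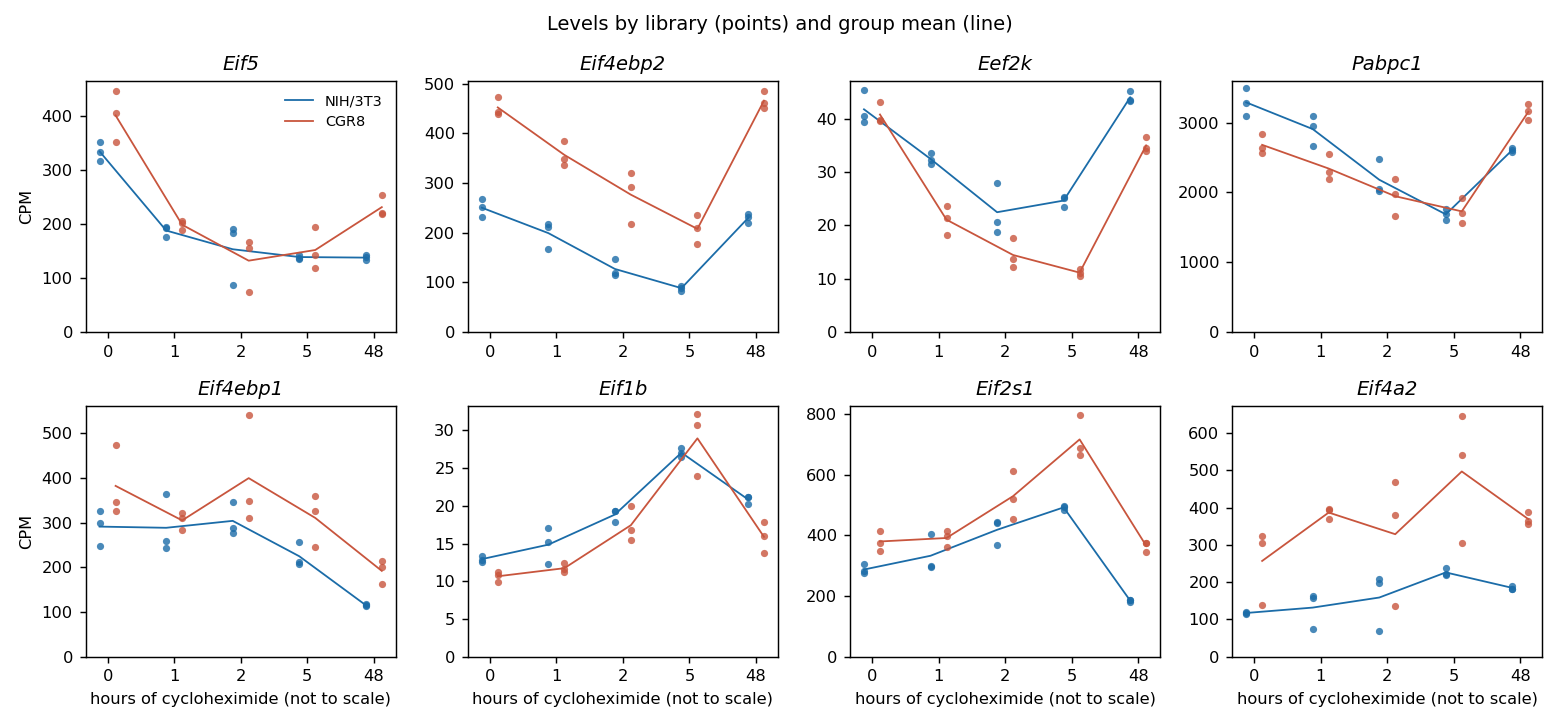
CPM of 8 members in each library (points) with group means (lines) at 0, 1, 2, 5 and 48 h of cycloheximide, in NIH/3T3 (blue) and CGR8 (orange), each panel with its own axis from 0. Eif4ebp2, Eef2k and Pabpc1 were low at 5 h and higher again at 48 h, while Eif5 stayed low in NIH/3T3. Eif1b and Eif2s1 were highest at 5 h, and Eif4a2 varied widely between replicates.

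The mRNAs for the 5 subunits of eIF2B, the exchange factor of eIF2, were all lower at 48 h in NIH/3T3, where 25.6% of all genes were. At 5 h, Eif2b2 and Eif2b3 were called in NIH/3T3 and Eif2b2, Eif2b3 and Eif2b5 in CGR8, all higher. Each of these calls was lost in 3 to 5 of the 6 cases in which 1 library was left out (adjusted p up to 0.0754 for Eif2b2 and 0.0941 for Eif2b3 in NIH/3T3 and 0.114 for Eif2b2, 0.0808 for Eif2b3 and 0.0756 for Eif2b5 in CGR8). At 48 h the NIH/3T3 median was -0.49, and in CGR8 it was -0.14. There edgeR called 0 of 5, beside 27.8% of all genes. Of the 5, 2 had an unadjusted p under 0.05, DESeq2 called 0 and limma-voom called 1. Eif2b1, the alpha subunit, measured 82.3, 76.7 and 81.2 CPM at 0 h and 48.1, 47.8 and 44.6 at 48 h in NIH/3T3. It was lower in every 48 h library, with a log2 fold change of -0.80 (SE 0.10, adjusted p = 4.6e-06). In CGR8 it read 92.2, 113 and 98.0 CPM at 0 h and 90.8, 115 and 99.4 at 48 h, and these ranges overlapped. Eif2b5, the catalytic epsilon subunit and the 1 with the highest mean CPM of the 5 over all libraries, stood at 111, 114 and 125 CPM at 0 h, 134, 135 and 131 at 5 h and 99.6, 93.2 and 91.2 at 48 h in NIH/3T3. Its log2 fold change at 48 h was -0.33 (SE 0.11, adjusted p = 0.0186), a call lost without 0 h C, 48 h B or 48 h C (adjusted p up to 0.087). Its CGR8 values were 229, 297 and 226 CPM at 0 h, 372, 367 and 285 at 5 h and 198, 213 and 197 at 48 h.

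The 12 subunits of eIF3, the largest initiation factor, did not move as 1 unit. At 5 h, 4 were higher and 4 lower in NIH/3T3, where 24.0% of all genes were higher and 27.1% lower. In CGR8, 6 were higher and 2 lower, beside 24.9% and 27.2% of all genes. Eif3e, Eif3h, Eif3i and Eif3m were higher in both lines, and Eif3a and Eif3c, which encode the large core scaffold subunits, were lower in both. Eif3b, another core subunit, had the highest mean CPM of the 12 over all libraries, although Eif3e was above it in NIH/3T3 at 5 h and Eif3a in CGR8 at 0 h. It read 834, 701 and 831 CPM at 0 h, 537, 506 and 529 at 5 h and 703, 685 and 691 at 48 h in NIH/3T3. In CGR8 its values were 672, 834 and 689 CPM at 0 h, 682, 703 and 550.3 at 5 h and 809.5, 917 and 836 at 48 h. The fall at 5 h passed in NIH/3T3, at -0.56 (SE 0.12, adjusted p = 0.00138), and did not in CGR8, at -0.24 (SE 0.15, adjusted p = 0.206). The difference between the lines was itself not called, at 0.41 (SE 0.20, adjusted p = 0.191). The sign of Eif3e, with log2 fold changes at 5 h of 0.53 (SE 0.11, adjusted p = 0.000595) and 0.61 (SE 0.10, adjusted p = 0.000115), turned to -0.20 and -0.23 when length and GC trends were removed. In CGR8 that of Eif3k, 0.53 (SE 0.17, adjusted p = 0.0145), turned to -0.12 (adjusted p = 0.206).

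Eif3a went from lower at 5 h to higher at 48 h in both lines. Its NIH/3T3 values were 677, 622 and 572 CPM at 0 h, 435, 442 and 476 at 5 h and 864, 833 and 845 at 48 h. The 48 h libraries lay above all 0 h libraries, and the log2 fold changes were -0.43 (SE 0.12, adjusted p = 0.00508) at 5 h and 0.41 (SE 0.12, adjusted p = 0.00661) at 48 h. In CGR8 it read 733, 702 and 818 CPM at 0 h, 410.1, 609.5 and 588 at 5 h and 1009, 1014 and 1062 at 48 h, with -0.54 (SE 0.14, adjusted p = 0.00488) at 5 h and 0.44 (SE 0.14, adjusted p = 0.0296) at 48 h. The CGR8 call at 48 h was lost without 0 h A (adjusted p = 0.0851), 0 h B (0.0949), 48 h A (0.0586), 48 h B (0.064) or 48 h C (0.0974), and with library sizes alone (0.0566). Eif3d, a subunit that can itself bind the cap, measured 189.6, 239.5 and 186 CPM at 0 h and 270.2, 309.8 and 262 at 48 h in CGR8. Its log2 fold change of 0.44 (SE 0.15, adjusted p = 0.0345) was likewise lost without 0 h A (adjusted p = 0.117), 0 h C (0.119), 48 h A (0.0581), 48 h B (0.131) or 48 h C (0.0566).

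The 10 mRNAs for the eIF4 factors and Pabpc1 moved in both directions at 5 h, with 3 higher and 4 lower in NIH/3T3 and 3 higher and 5 lower in CGR8. Of all genes, 24.0% were higher and 27.1% lower in NIH/3T3 and 24.9% and 27.2% in CGR8. The cap-binding protein Eif4e and the helicase Eif4a1 were higher in both lines, and Eif4b, Eif4g1, Eif4g3 and Pabpc1 were lower in both. With length and GC trends removed, the CGR8 values of Eif4g1 and Eif4g3 moved from -0.53 and -0.47 to 0.03 (adjusted p = 0.758) and 0.03 (0.812). Pabpc1, which binds the poly(A) tail and eIF4G, had the highest mean CPM of the group over all libraries, although Eif4a1 was above it at 5 h in both lines. It read 3497, 3092 and 3276 CPM at 0 h, 2476, 2014 and 2053 at 2 h, 1601, 1689 and 1768 at 5 h and 2612, 2638 and 2573 at 48 h in NIH/3T3. Its 5 h libraries lay below all 0 h libraries, at -0.93 (SE 0.10, adjusted p = 2.23e-06), and 48 h remained below, at -0.36 (SE 0.10, adjusted p = 0.0057). In CGR8 it read 2571, 2838 and 2633 CPM at 0 h, 2198, 1973 and 1665 at 2 h, 1560, 1918 and 1707 at 5 h and 3037, 3162 and 3262 at 48 h. There the fall was -0.69 (SE 0.12, adjusted p = 0.000183) at 5 h, and the 48 h libraries were above the 0 h libraries without passing, at 0.22 (SE 0.12, adjusted p = 0.17).

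Eif4a2, the second eIF4A helicase, rose at 5 h in NIH/3T3 from 114, 120.3 and 118 CPM at 0 h to 221, 238 and 219.6. The groups did not overlap, and the log2 fold change was 0.98 (SE 0.30, adjusted p = 0.0113), but 0.58 (adjusted p = 0.117) with length and GC trends removed. In CGR8 the values were 306, 139.6 and 325 CPM at 0 h and 541, 305 and 645 at 5 h. There Eif4a2 was higher by 0.90 (SE 0.37, adjusted p = 0.0504) on the log2 scale, which did not pass. In several groups its lowest value came from a library that stood apart over all genes: 74.8 CPM in NIH/3T3 1 h C, 69.5 in NIH/3T3 2 h A, 139.6 in CGR8 0 h B and 135 in CGR8 2 h A, and the part of these libraries in the result was not tested. Several small nucleolar RNA genes lie inside Eif4a2 and its exons overlap Rfc4 on the other strand.

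Eif4g2, the scaffold that lacks the eIF4E-binding site, read 2303, 2503 and 2297 CPM at 0 h, 1071, 1476 and 1544 at 5 h and 1364, 1452 and 1584 at 48 h in CGR8. It was lower at both times, at -0.85 (SE 0.13, adjusted p = 6.83e-05) and -0.70 (SE 0.13, adjusted p = 0.000755). In NIH/3T3 it measured 1636, 1795 and 1550 CPM at 0 h, 1422, 1419 and 1407 at 5 h and 1041, 1036 and 986 at 48 h. The changes were -0.20 (SE 0.08, adjusted p = 0.0557) at 5 h, which did not pass, and -0.73 (SE 0.08, adjusted p = 2.44e-06) at 48 h. Eif4g3, the least abundant scaffold, stood at 33.3, 32.6 and 32.6 CPM at 0 h and 43.0, 43.6 and 40.8 at 48 h in NIH/3T3. Although these libraries did not overlap, the rise of 0.34 (SE 0.14, adjusted p = 0.0422) was not called when any 1 of the 6 libraries was left out. The adjusted p was 0.0835, 0.0871 and 0.0925 without 0 h A, B and C and 0.0916, 0.107 and 0.0695 without 48 h A, B and C. With length and GC trends removed it was 0.147.

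Of the eIF4E-binding repressors, Eif4ebp2 fell early and recovered, and Eif4ebp1 fell late. Eif4ebp2 measured 269, 231 and 252 CPM at 0 h, 218, 212 and 168 at 1 h, 148, 119 and 115 at 2 h, 89.8, 82.0 and 93.9 at 5 h and 231, 238 and 220.0 at 48 h in NIH/3T3. The 2 and 5 h libraries were below all others at 0 and 48 h, with log2 fold changes of -0.94 (SE 0.11, adjusted p = 2.14e-05) and -1.47 (SE 0.11, adjusted p = 1.24e-07), and at 48 h it was -0.15 (SE 0.11, adjusted p = 0.256). In CGR8 the mRNA read 444, 474 and 439 CPM at 0 h, 384, 349 and 337 at 1 h, 320.3, 292 and 218 at 2 h, 177, 236 and 211 at 5 h and 461, 451 and 485 at 48 h. Its log2 fold changes at 2, 5 and 48 h were -0.73 (SE 0.13, adjusted p = 0.00217), -1.18 (SE 0.14, adjusted p = 6.29e-06) and 0.03 (SE 0.13, adjusted p = 0.889). Against 5 h, the 48 h level was higher by 1.31 (SE 0.11, adjusted p = 7.41e-08) in NIH/3T3 and 1.21 (SE 0.14, adjusted p = 2.84e-06) in CGR8 on the log2 scale.

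Eif4ebp1 was at 299, 247 and 327 CPM at 0 h, 257, 211 and 207 at 5 h and 115, 118 and 113 at 48 h in NIH/3T3. The 48 h libraries lay below all untreated ones, at -1.36 (SE 0.15, adjusted p = 1.74e-06), while the 5 h libraries overlapped them, at -0.34 (SE 0.15, adjusted p = 0.0625). CGR8 showed 346, 475 and 326 CPM at 0 h, 359, 326 and 246 at 5 h and 200.0, 213 and 163 at 48 h, with -0.35 (SE 0.19, adjusted p = 0.133) at 5 h and -1.0 (SE 0.19, adjusted p = 0.00108) at 48 h. The difference between the lines in the 48 h change was 0.34 (SE 0.26, adjusted p = 0.393), which did not pass.

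Of the 6 elongation factor mRNAs, Eef1a1 and Eef1b2 rose and Eef2 fell at 5 h in both lines. Eef1a1, which encodes the carrier of aminoacyl-tRNA, was the most abundant member, with 9748, 10050 and 10350 CPM at 0 h, 13330, 13610 and 12290 at 5 h and 9362, 8838 and 8761 at 48 h in NIH/3T3. In CGR8 it read 11960, 17260 and 12560 CPM at 0 h, 20200, 23400 and 16480 at 5 h and 11750, 12650 and 11290 at 48 h. The rise at 5 h was 0.41 (SE 0.14, adjusted p = 0.0231) in NIH/3T3, a call lost without any 1 of the 6 libraries but 5 h C (adjusted p up to 0.0754). In CGR8 it was 0.47 (SE 0.16, adjusted p = 0.0219), lost without 0 h A, 0 h C or 5 h B (up to 0.106). Eef1b2, a subunit of the factor that recharges eEF1A, rose by 0.54 (SE 0.14, adjusted p = 0.00548) and 0.70 (SE 0.16, adjusted p = 0.00216), and Eef2, the translocase, changed by -0.80 (SE 0.13, adjusted p = 9.91e-05) and -0.59 (SE 0.15, adjusted p = 0.00396). At 48 h Eef2 was still lower in NIH/3T3, at -0.55 (SE 0.13, adjusted p = 0.00202), together with Eef1d and Eif5a, beside 25.6% of all genes. In CGR8 edgeR called 0 of the 6, beside 27.8% of all genes (0 with an unadjusted p under 0.05, 0 by DESeq2 and 1 by limma-voom).

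Eef2k, the kinase that inhibits eEF2, was the 1 member called at 1 h, in CGR8. In CGR8 its mRNA read 39.7, 43.1 and 39.5 CPM at 0 h, 23.7, 21.3 and 18.2 at 1 h, 17.6, 13.6 and 12.2 at 2 h, 11.8, 11.2 and 10.5 at 5 h and 36.5, 34.5 and 34.0 at 48 h. Every library of 1, 2 and 5 h was below every library of 0 h, with log2 fold changes of -0.95 (SE 0.13, adjusted p = 0.00267), -1.52 (SE 0.13, adjusted p = 6.66e-06) and -1.92 (SE 0.13, adjusted p = 1.44e-07). At 48 h it was -0.23 (SE 0.13, adjusted p = 0.188). In NIH/3T3 the values were 40.5, 39.5 and 45.3 CPM at 0 h, 32.2, 33.6 and 31.6 at 1 h, 27.9, 18.8 and 20.7 at 2 h, 25.3, 23.5 and 25.2 at 5 h and 45.2, 43.3 and 43.6 at 48 h. The untreated and the 5 h libraries were again apart, at -0.73 (SE 0.12, adjusted p = 9.75e-05). The change was -0.34 (SE 0.12, adjusted p = 0.266) at 1 h, which did not pass, -0.86 (SE 0.12, adjusted p = 8.91e-05) at 2 h and 0.05 (SE 0.12, adjusted p = 0.754) at 48 h. Its exons overlap Gm15774 on the other strand.

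Etf1 (eRF1), Gspt1 (eRF3) and Abce1 (the ATPase that splits ribosomes) were all higher at 5 h in NIH/3T3, at 0.70 (SE 0.09, adjusted p = 8.18e-06), 0.26 (SE 0.08, adjusted p = 0.00967) and 0.42 (SE 0.08, adjusted p = 0.00063). In CGR8 Etf1 alone was called, at 0.30 (SE 0.09, adjusted p = 0.0141), a call lost without 0 h A or 5 h B (adjusted p up to 0.0646). Abce1, which had the highest mean CPM of the 3 over all libraries although Gspt1 was above it in NIH/3T3 at 0 h, read 455, 484 and 425 CPM at 0 h, 580.0, 611 and 587 at 5 h and 429, 429.8 and 420.3 at 48 h in NIH/3T3. In CGR8 it read 761, 792 and 799 CPM at 0 h, 735, 961 and 1024 at 5 h and 976, 1002 and 1143 at 48 h. Eif6, which keeps the large subunit from joining the small one, was lower at 48 h in NIH/3T3, at -0.43 (SE 0.13, adjusted p = 0.0129) against 0 h, a call lost without 0 h C (adjusted p = 0.068), and at -0.55 (SE 0.13, adjusted p = 0.00187) against 5 h.

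The direction of change at 5 h went with transcript length, in the members as in all genes. Of the 16 members with a representative transcript of 3000 bases or more, 5 were higher and 10 lower in NIH/3T3 and 4 were higher and 11 lower in CGR8. Of the 31 shorter members, 14 were higher and 3 lower in NIH/3T3 and 18 were higher and 1 lower in CGR8. Of all genes of 3000 bases or more, 18.1% were higher and 37.2% lower in NIH/3T3 and 11.6% and 44.5% in CGR8, and of shorter ones 28.7% and 19.5% in NIH/3T3 and 35.0% and 14.3% in CGR8. Across genes, Pearson's r between log2 length and log2 fold change at 5 h was -0.475 (Spearman -0.449) over the 47 members and -0.251 (-0.281) over 13674 genes in NIH/3T3, and -0.646 (-0.598) and -0.428 (-0.475, 15589 genes) in CGR8. At 2 h, r was -0.589 over the members and -0.335 over all genes in NIH/3T3, and -0.597 and -0.386 in CGR8. For 48 against 5 h the sign was reversed, at 0.506 and 0.367 in NIH/3T3 and 0.634 and 0.412 in CGR8. Genes measured in the same libraries share their RNA quality and depth and are not independent, and the part of RNA quality in this relation was not tested. With length and GC trends removed, 24 of the 32 called members kept their call and direction in NIH/3T3 and 19 of the 34 in CGR8. Eif3e in NIH/3T3 and Eif2b3 in CGR8 were called in the other direction, at -0.20 (adjusted p = 0.0379) and -0.23 (0.0139). Eif5, Eif1b, Eif4ebp2, Eef2k and Pabpc1 were among those that kept their call and direction at 5 h in both lines. Eif1ax and Eif4e, with transcripts of 5172 and 4991 bases, were long members that rose. Eif4e rose by 0.72 in NIH/3T3 and 0.57 in CGR8 on the log2 scale.

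**Figure D3:**
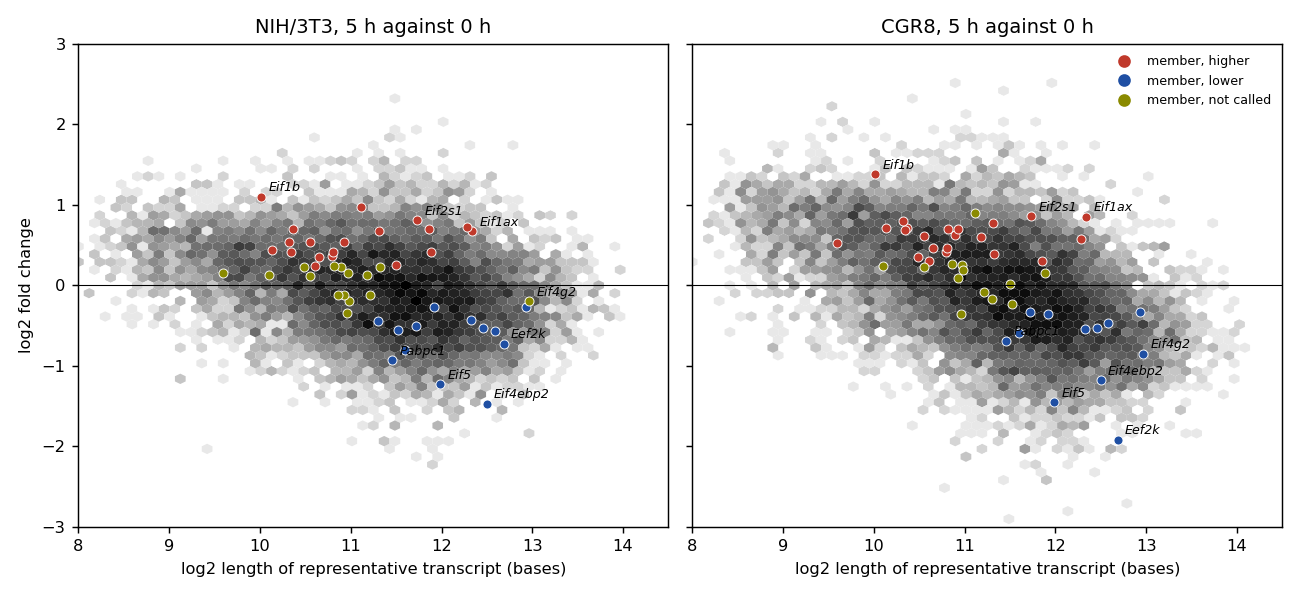
Log2 fold change at 5 h against log2 transcript length in NIH/3T3 (left) and CGR8 (right), for all genes tested (grey, darker where there are more genes, on a log scale of counts) and for the 47 members (red higher, blue lower, olive not called). Long members lie mostly below 0 and short ones above, as in all genes, and Eif1ax and Eif2s1 are long members above 0.

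Another grouping cut across the roles. The 10 members with a textbook terminal oligopyrimidine (TOP) tract, which ties translation of an mRNA to growth signals, were Eef1a1, Eef1b2, Eef1d, Eef1g, Eef2, Eif3e, Eif3f, Eif3h, Eif4b and Pabpc1. At 5 h, 4 of them were higher and 4 lower in NIH/3T3 (median 0.00), where 24.0% of all genes were higher and 27.1% lower. In CGR8, 5 were higher and 3 lower (median 0.37), beside 24.9% and 27.2% of all genes. The other 37 members had 15 higher and 9 lower (median 0.22) and 17 higher and 9 lower (median 0.26). TOP mRNAs were thus called in both directions, as all genes were. At 48 h in NIH/3T3, 4 of the 10 TOP members were lower, Eef2, Pabpc1, Eif3h and Eef1d, beside 20 of the other 37 and 25.6% of all genes.

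Together the 47 members took 3.84% ± 0.0602 of all counts in NIH/3T3 at 0 h (SD, n = 3), 4.09% ± 0.0798 at 5 h and 3.3% ± 0.0389 at 48 h. In CGR8 the shares were 4.67% ± 0.366, 4.95% ± 0.271 and 4.36% ± 0.0995. Eef1a1 alone made up 0.992% ± 0.0236, 1.32% ± 0.0643 and 0.916% ± 0.0257 of all counts in NIH/3T3 and 1.43% ± 0.23, 1.84% ± 0.208 and 1.2% ± 0.0537 in CGR8. Without Eef1a1 the share of the other 46 was 2.85% ± 0.0563, 2.77% ± 0.0173 and 2.39% ± 0.014 in NIH/3T3 and 3.24% ± 0.136, 3.11% ± 0.063 and 3.16% ± 0.0613 in CGR8. The share of the other 46 was thus not higher at 5 h than at 0 h in either line. In NIH/3T3 it was lower at 48 h by more than the SDs of both groups, and in CGR8 it differed by less than the SD at 0 h; these shares were not tested.

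Whether the response differed between the lines was tested as an interaction in the fit of all 30 libraries, as the CGR8 change minus the NIH/3T3 change. At 1 h and 2 h, 0 members were called by edgeR, where 0.160% and 2.03% of all genes were; 1 and 2 members had an unadjusted p under 0.05, DESeq2 called 0 and 1, and limma-voom called 1 and 2. At 5 h, 3 members differed, against 13.3% of all genes (8.18% higher, 5.09% lower in CGR8). The median difference with TMM was 0.197 over the members, beside 0.13 over all genes. The split of all genes turned with the scaling: 1435 were higher and 894 lower with TMM, 944 and 1111 with RLE scaling and 661 and 1439 with library sizes alone. It turned too without CGR8 5 h A (481 and 1202), without CGR8 5 h B (568 and 1320) and with a filter at a mean of 5 CPM (849 and 1228). At 2 h the split was 153 and 203 with TMM and 106 and 227 with RLE scaling. Eef2k fell further in CGR8, with a difference of -1.11 (SE 0.18, adjusted p = 8.71e-05) on the log2 scale. Eif4g2 did so by -0.57 (SE 0.14, adjusted p = 0.00886), but by -0.23 (adjusted p = 0.488) with length and GC trends removed. Eif4e2, a cap-binding protein that acts in repression, rose further in CGR8. It measured 232, 273 and 254 CPM at 0 h and 490.1, 432 and 359 at 5 h in CGR8 and 153, 148 and 164 and 194, 170.5 and 174 in NIH/3T3, a difference of 0.54 (SE 0.17, adjusted p = 0.0297). That call was lost without NIH/3T3 0 h C (adjusted p = 0.0691), 5 h B (0.0764) or 5 h C (0.0679). It was lost too without CGR8 0 h A (0.0921), 0 h C (0.0561), 5 h A (0.452) or 5 h B (0.212). Other settings that ended it were the scaling of DESeq2 (0.46, 0.0701), library sizes alone (0.35, 0.0998), no filter (0.0548) or a filter at a mean of 5 CPM (0.0528). The count of 3 was 7 without CGR8 0 h B and 9 without CGR8 5 h C.

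At 48 h, 14 members differed between the lines, 13 of them higher and 1 lower in CGR8 relative to NIH/3T3, against 21.9% of all genes (9.78% higher, 12.1% lower). The 13 were Eif2s1, Eif2b1, Eif3d, Eif3e, Eif3l, Eif3m, Eif4a1, Eif4b, Eif4e, Eif4e2, Eif4h, Pabpc1 and Abce1, spread over the eIF2, eIF2B, eIF3 and eIF4 groups and recycling. Eif2b1 differed most, by 0.78 (SE 0.15, adjusted p = 0.000407). Eif3m, a subunit of the eIF3 shell, read 282, 285 and 282 CPM at 0 h and 213, 209 and 205 at 48 h in NIH/3T3 and 225, 271 and 236 and 281, 304 and 284 in CGR8. The 48 h libraries lay below those of 0 h in NIH/3T3 and above them in CGR8, a difference of 0.69 (SE 0.16, adjusted p = 0.00231). Eif4g3 was the 1 member that differed the other way, by -0.62 (SE 0.20, adjusted p = 0.0218), with 59.9, 48.4 and 60.9 CPM at 0 h and 46.5, 49.4 and 46.8 at 48 h in CGR8. That call was lost without NIH/3T3 0 h B (adjusted p = 0.0506), 0 h C (0.0572), 48 h A (0.0552) or 48 h B (0.0556). It was also lost without CGR8 0 h A (0.0583), 0 h C (0.0734) or 48 h A (0.0526).

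**Figure D4:**
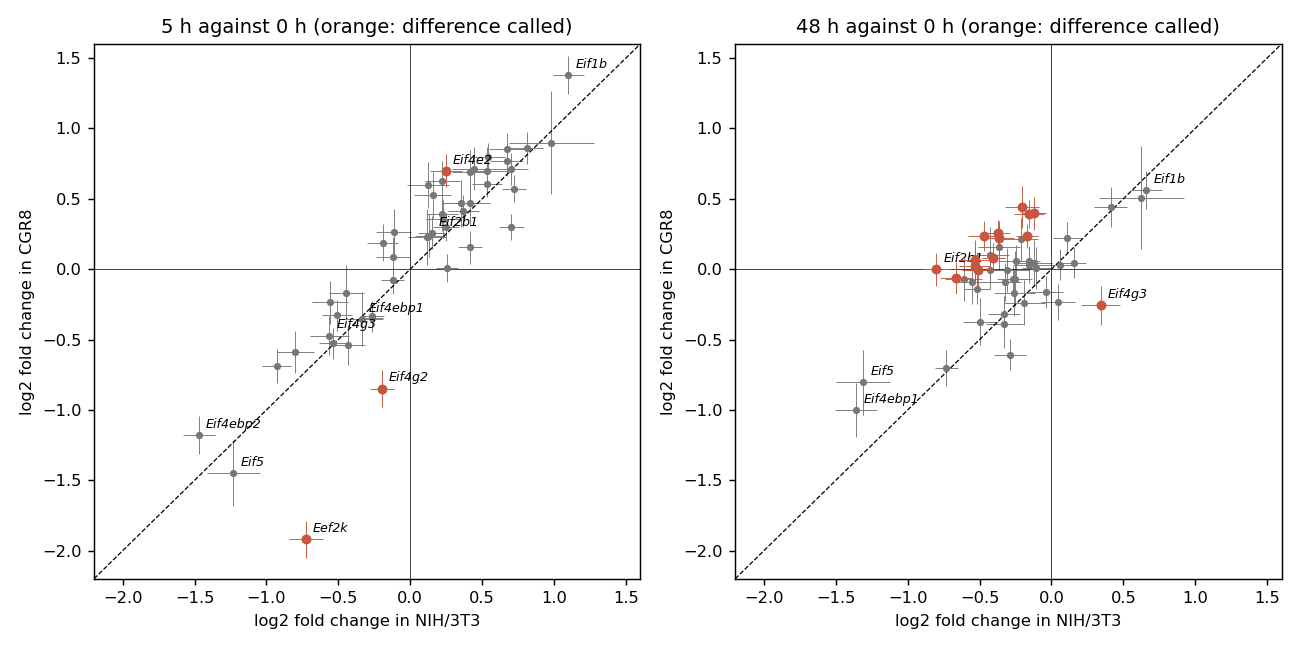
Log2 fold change of each member in NIH/3T3 (horizontal) and CGR8 (vertical) at 5 h (left) and 48 h (right), with bars of 1 standard error, the dashed line of equal change, and orange points where the difference between the lines was called. Of the orange points at 5 h, Eef2k and Eif4g2 lie below the line and Eif4e2 above it. The median difference between the lines at 5 h was 0.197 over the members, beside 0.13 over all genes. Of the orange points at 48 h, 13 lie above the line and Eif4g3 below.

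Before treatment, 19 members were higher and 10 lower in CGR8 than in NIH/3T3, where 79.1% of all genes were called (42.8% higher, 36.3% lower). Eif2b4, the delta subunit of eIF2B, read 47.8, 43.7 and 50.1 CPM in NIH/3T3 and 117, 148 and 112 in CGR8, and Eif3k, an outer eIF3 subunit, 137, 143 and 152 and 339.5, 474 and 333. Neither pair of groups overlapped, and the log2 differences were 1.41 (SE 0.13, adjusted p = 5.09e-11) and 1.41 (SE 0.16, adjusted p = 5.39e-09). Eif1ax, at 366, 359 and 362 and 176, 199 and 179.5 CPM, and Eif1, at 729, 644 and 745 and 371, 423 and 402, were the mRNAs furthest below in CGR8, by -0.97 (SE 0.12, adjusted p = 4.29e-08) and -0.82 (SE 0.12, adjusted p = 6.5e-07). On a scale per length (CPM per kilobase of the representative transcript, mean ± SD, n = 3), Eef1a1 ranked first in both lines at 5602 ± 168 in NIH/3T3 and 7764 ± 1616 in CGR8, followed by Eif5a at 1521 ± 69.2 and 1367 ± 215. Pabpc1, Eef2 and Eif4a1 came next in NIH/3T3, at 1167 ± 71.9, 1144 ± 103 and 1027 ± 28.3, of which Pabpc1 and Eef2 did not differ beyond their spread. In CGR8 the order was Eif4a1 at 1324 ± 106, Eef2 at 1262 ± 188 and Pabpc1 at 952 ± 49.6, and Eif5a, Eif4a1 and Eef2 did not differ beyond their spread. The lowest levels per length in both lines were those of Eif1b, Eef2k and Eif4g3, at 12.5 ± 0.384, 6.35 ± 0.476 and 5.35 ± 0.0662 in NIH/3T3 and 10.3 ± 0.683, 6.2 ± 0.31 and 9.19 ± 1.13 in CGR8.

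Further genes of the pathway, 61 by symbol of which 60 were found, were counted in the same way: eIF2 kinases and phosphatase subunits, enzymes that modify eIF5A and eEF2, ribosome rescue factors, mitochondrial translation factors and other cytosolic factors. At 5 h, 19 were higher and 18 lower of 56 tested in NIH/3T3, where 24.0% of all genes were higher and 27.1% lower. In CGR8 20 were higher and 17 lower of 58, where these shares were 24.9% and 27.2%. The eIF2 kinases and phosphatase subunits were the list with calls in 1 direction in both lines, with 5 of 6 lower in each: Eif2ak1, Eif2ak3, Eif2ak4, Ppp1r15a and Ppp1r15b (median -0.43 and -0.61). The part of transcript length in these falls was not tested. Ppp1r15a, the stress-induced subunit (GADD34) of the phosphatase that acts on eIF2 alpha, read 37.4, 30.6 and 40.3 CPM at 0 h, 13.0, 10.6 and 13.5 at 5 h and 15.8, 14.6 and 13.4 at 48 h in NIH/3T3. Its 5 and 48 h libraries lay below the untreated ones, at -1.52 (SE 0.15, adjusted p = 9.62e-07) and -1.33 (SE 0.15, adjusted p = 2.04e-06). The 1 h libraries, at 45.3, 46.7 and 33.1 CPM, overlapped the untreated ones, and those of 2 h, at 53.0, 65.5 and 72.55, lay above them. In CGR8 the changes at 5 and 48 h were -0.92 (SE 0.10, adjusted p = 6.2e-06) and -0.90 (SE 0.10, adjusted p = 1.36e-05). Dph5, an enzyme that builds the diphthamide residue of eEF2, rose at 5 h in NIH/3T3 from 26.9, 27.2 and 27.4 CPM to 62.8, 55.9 and 55.5, a change of 1.13 (SE 0.11, adjusted p = 9.62e-07).

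In CGR8 at 5 h, 6 of 10 mitochondrial translation factors were called, all higher, where 52.1% of all genes were called (24.9% higher, 27.2% lower). NIH/3T3 had 4 higher and 2 lower, where 51.0% of all genes were called (24.0% higher, 27.1% lower). No test of the line difference is given here for this list, so these counts do not show a contrast between the lines. Mtrf1, a mitochondrial release factor, went from 13.1, 14.3 and 12.1 CPM to 28.2, 29.4 and 24.7 in CGR8, at 1.00 (SE 0.12, adjusted p = 9.87e-06). Zfp598, the ubiquitin ligase that marks collided ribosomes, went the other way, from 144, 126 and 129.5 to 76.8, 70.8 and 69.7 CPM, at -0.93 (SE 0.10, adjusted p = 3.28e-06), and the groups did not overlap for either gene. At 48 h, 10 pathway genes were higher and 23 lower of 56 in NIH/3T3, beside 26.7% and 25.6% of all genes, and 10 higher and 6 lower of 58 in CGR8, beside 12.2% and 15.6%. Mtif2, a mitochondrial initiation factor, rose in NIH/3T3 from 14.7, 18.1 and 16.3 to 31.5, 31.0 and 30.7 CPM, at 0.89 (SE 0.13, adjusted p = 4.32e-05). In CGR8 Mcts1, a partner of Denr in ribosome recycling and reinitiation, rose from 20.1, 18.2 and 20.8 to 36.9, 38.8 and 38.6 CPM, at 0.94 (SE 0.11, adjusted p = 1.63e-05). Paip2b, a repressor that binds poly(A)-binding protein, fell from 102, 110.3 and 111 to 58.0, 54.3 and 57.4, at -0.94 (SE 0.09, adjusted p = 3.41e-06).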

How the data were processed

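Bulk RNA-seq libraries of 2 mouse cell lines at 5 times of cycloheximide were analysed from a deposited matrix of read counts per gene, raw and not normalized by the authors. Per the labels' protocols, libraries were made from total RNA with a stranded mRNA ligation kit. Per the submitters' processing notes, STAR, DESeq2 and the build GRCm39 were used, with no role stated. Whether the counting used strand is not given in the sources used here. Symbols came from a table of Ensembl identifiers with version suffixes ignored, which named 51880 of 57186 identifiers (90.7%). With the suffixes kept, 35 identifiers would have matched.

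Samples were grouped by cell line and time. Each line was fitted on its own 15 libraries, and a fit of all 30 gave the differences between the lines, with edgeR 4.0.16 (R 4.3.3), TMM scaling, filterByExpr (minimum count 10, minimum total 15) and the quasi-likelihood F test. Adjusted p-values are Benjamini-Hochberg over all genes tested. CPM use TMM effective library sizes over all 30 libraries. Members named with values in every library were the called ones with the largest rises and falls (3 each at 5 and 48 h, 1 each at 1 and 2 h), the largest line differences (2 each way) and the highest mean CPM over all libraries of each role with 3 or more members. Of the pathway lists, the largest called rise and fall per line at 5 and 48 h were named, and further members named were chosen after their values were seen. The members and lists were chosen with earlier results of these data known. No 2 replicates agreed within sampling noise (lowest chi-square per degree of freedom 1.67). On simulated counts for the 5 h comparisons, changes of log2 1 were recovered for 77.8% of 99 changed genes in NIH/3T3 (13669 genes tested) and 70.7% of 99 in CGR8 (15607 genes tested). Of the calls, 4.95% and 3.61% were false. Few genes were changed in these simulated counts, and each gene varied independently. The rates need not hold in the data, where 51.0% and 52.1% of genes were called at 5 h. Alternatives were DESeq2 1.42.0, other scalings and filters, a replicate block, fits of the compared groups only, each library left out, and, chosen after seeing the data, limma 3.58.1 voom with quality weights and removal of trends with transcript length and GC content.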

Additional observations from a re-analysis of the deposited data

Results flagged for a closer look

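The 2 members with the largest called difference between the lines in each direction are given here, since the test of the difference itself passed in the fit of all 30 libraries. At 5 h, the CGR8 minus NIH/3T3 difference in log2 fold change was 0.54 for Eif4e2, -1.11 for Eef2k and -0.57 for Eif4g2. At 48 h it was 0.78 for Eif2b1, 0.69 for Eif3m and -0.62 for Eif4g3. The calls of Eef2k, Eif2b1 and Eif3m were kept when any 1 library was left out, with adjusted p up to 0.000431, 0.00252 and 0.0096. Those of Eif4e2 and Eif4g3 were not (up to 0.452 and 0.0734), and Eif4g2 was kept in each of those fits (up to 0.0357).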

How the results depend on the processing

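No called member changed sign under the other scalings. With length and GC trends removed, the sign of called members turned for Eif3e and Eif3m in NIH/3T3 and Eif3e in CGR8 at 2 h. At 5 h it turned for Eif2b3 and Eif3e in NIH/3T3 and for Eif2b3, Eif3e, Eif3k, Eif4g1, Eif4g3 and Eif5b in CGR8. For 48 against 5 h it turned for Eif1b, Eif3e, Eif3g and Eif3k in NIH/3T3 and for Eif2b3, Eif3m, Eif4a1, Eif5a and Eif5b in CGR8. Under the alternatives other than leaving 1 library out, 108 comparisons of a count of called members stayed within 1.5 times and 27 did not. Of named members' calls, 343 were kept and 8 lost under these alternatives, each given with its result above. With 1 library left out, 102 comparisons of a count stayed within 1.5 times and 12 did not, and 237 named calls were kept and 33 lost. Voom with quality weights called 10 members in NIH/3T3 at 1 h, 39 at 2 h and 42 at 48 h, 3, 24 and 20 in CGR8 at these times, and 1, 2, 31 and 31 for the line differences at 1, 2, 5 and 48 h. With length and GC trends removed, 1 was called in NIH/3T3 at 1 h, 2, 5 and 16 in CGR8 at 1, 2 and 48 h, and 22 for the 48 h difference. Fits of the compared groups only gave 1 and 42 in NIH/3T3 at 1 and 48 h, 2 and 4 in CGR8 at 1 and 2 h, and 24 for the 48 h difference. DESeq2 gave 1 in NIH/3T3 and 2 in CGR8 at 1 h and 1 for the 2 h difference, RLE scaling gave 1 in NIH/3T3 at 1 h, no filter gave 1 in NIH/3T3 and 3 in CGR8 at 1 h, and a mean of at least 5 CPM gave 1 for the 2 h difference. For length and GC, and for voom, the cause was not tested. Library sizes alone moved the median of all genes in CGR8 at 5 h from -0.01 to -0.12 and that of the 5 h line difference from 0.13 to -0.06.

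With each library left out in turn, counts ranged in NIH/3T3 from 0 to 1 at 1 h, 16 to 27 at 2 h, 26 to 30 at 5 h, 20 to 23 at 48 h and 38 to 40 for 48 against 5 h, and in CGR8 from 1 to 1, 4 to 19, 27 to 35, 6 to 8 and 29 to 35. The line differences ranged from 0 to 0, 0 to 1, 2 to 9 and 10 to 19, and the 0 h difference from 26 to 32. With a replicate block the counts were 0, 25, 32, 27 and 40 in NIH/3T3, 1, 14, 35, 10 and 32 in CGR8, 0, 0, 3 and 14 for the line differences and 30 at 0 h. Same-lettered libraries did not deviate together throughout (correlations for A, B and C in CGR8 of -0.426, -0.523 and 0.236 between 0 and 2 h, -0.078, 0.37 and 0.373 between 0 and 5 h and 0.0228, 0.182 and 0.154 between 0 and 48 h), so the letters were taken as labels only. With 3 libraries a group, smaller changes may have been missed.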
